A study of Mus musculus with 8 samples.

Results

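The genes described here encode the helicase that unwinds DNA at replication origins and the proteins that load and start it. The set was a named list of 10 genes, chosen by function with earlier results of these data known: Mcm2, Mcm3, Mcm4, Mcm5, Mcm6, Mcm7, Mcm10, Cdc6, Cdt1 and Cdc45. All 10 were found among the 27179 gene rows of the count table and all 10 were high enough to be tested. RNA was sequenced from B cell progenitors sorted from mouse bone marrow, at the early large pre-B stage (early LPre-B) and at the small pre-B stage (sPre-B) that follows it. Every mouse was Upf1 Flox/Flox and carried the Igh B1-8hi/+ knock-in, a heavy chain gene that is already rearranged. The controls were Mb1 +/+ (Ctrl/Igh B1-8hi), and the knockouts were Mb1 Cre/+ (cKO/Igh B1-8hi), in which Cre made from the B-lineage gene Mb1 (Cd79a) removes exons of Upf1, the RNA helicase of nonsense-mediated decay. Mice were adult, age-matched, of both sexes and on a C57BL/6 background. Each combination of genotype and stage had 2 libraries, 8 in all. Early LPre-B cells were gated as B220+, sIgM-, CD43+, CD2- cells of high forward scatter, and sPre-B cells as CD43 low, CD25+, CD2+ cells of low forward scatter.

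Replication origins are licensed in G1. The origin recognition complex binds DNA, Cdc6 joins it, and Cdt1 brings in the ring of Mcm2 to Mcm7, so that a pair of rings encircles the double helix in an inactive form. At the start of S phase the kinases Cdc7-Dbf4 and cyclin-dependent kinase, with Cdc45, the GINS complex and Mcm10, turn the loaded rings into active helicases. Cdt1 is then inhibited by geminin (Gmnn) and destroyed, which prevents a second licensing in the same cycle. Most of these genes are known E2F targets and are transcribed in cycling cells. Large pre-B cells divide several times under pre-B cell receptor and interleukin-7 signals and then leave the cycle as small pre-B cells, which rearrange the light chain genes.

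Because the 10 genes moved together between the stages, the bases before their start sites were read from RefSeq promoter windows (build GRCm38.p6), each of 250 bases before and 50 after a start site. A window was found for 9 of the 10 genes, all but Mcm4, and Mcm7 had 2. The letters searched on both strands were TTTCCCGC, TTTCGCGC, TTTGCCGC and TTTGGCGC for E2F, CCAAT, and TTTGAA and TTCGAA for the cell cycle genes homology region. Within the 250 bases before the start, E2F letters stood in 4 of the 9 genes (Mcm5, Mcm6, Mcm7 and Cdc6) against 1.86% of all 32851 windows, and CCAAT in 7 of 9 against 33.8%. The homology region letters stood in 3 of 9 (Mcm2, Mcm7 and Cdc45) against 17.1%. With the 50 bases after the start included, E2F letters were present in 6 of 9, Mcm3 and Cdt1 being the additional genes, against 2.26%. The stretches before the start are shown for 5 genes that differ in these letters, with E2F and CCAAT matches in capitals. Mcm6 has E2F letters at 3 positions, of which the first pair overlaps, and 2 inverted CCAAT. Mcm5 has an overlapping pair of E2F matches. Mcm2 and Mcm10 have only CCAAT in capitals, and Cdt1 has neither. Letters that match are a description and not a binding site.

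Mcm6, chr1:128359706-128359955, minus strand, 5′ to 3′: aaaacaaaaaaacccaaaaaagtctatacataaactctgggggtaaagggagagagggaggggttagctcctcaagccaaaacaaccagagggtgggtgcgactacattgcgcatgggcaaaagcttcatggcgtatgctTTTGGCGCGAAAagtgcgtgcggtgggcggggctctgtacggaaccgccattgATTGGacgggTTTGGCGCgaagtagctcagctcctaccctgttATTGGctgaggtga
Mcm5, chr8:75109259-75109467, plus strand, 5′ to 3′: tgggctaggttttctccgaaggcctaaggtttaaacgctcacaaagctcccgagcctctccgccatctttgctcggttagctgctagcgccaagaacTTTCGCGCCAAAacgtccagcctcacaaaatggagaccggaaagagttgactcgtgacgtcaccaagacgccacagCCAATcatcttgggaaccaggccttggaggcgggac
Mcm2, chr6:88898781-88899030, minus strand, 5′ to 3′: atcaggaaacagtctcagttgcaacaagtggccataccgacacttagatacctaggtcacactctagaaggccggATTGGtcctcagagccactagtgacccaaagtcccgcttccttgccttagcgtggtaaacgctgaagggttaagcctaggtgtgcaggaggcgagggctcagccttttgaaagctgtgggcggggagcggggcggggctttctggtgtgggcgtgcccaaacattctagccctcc
Mcm10, chr2:5012792-5013041, minus strand, 5′ to 3′: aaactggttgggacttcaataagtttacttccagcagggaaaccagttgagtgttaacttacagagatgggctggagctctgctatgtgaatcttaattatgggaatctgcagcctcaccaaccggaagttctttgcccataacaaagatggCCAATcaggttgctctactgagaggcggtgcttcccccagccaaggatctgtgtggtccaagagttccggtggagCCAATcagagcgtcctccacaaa
Cdt1, chr8:122567765-122568014, plus strand, 5′ to 3′: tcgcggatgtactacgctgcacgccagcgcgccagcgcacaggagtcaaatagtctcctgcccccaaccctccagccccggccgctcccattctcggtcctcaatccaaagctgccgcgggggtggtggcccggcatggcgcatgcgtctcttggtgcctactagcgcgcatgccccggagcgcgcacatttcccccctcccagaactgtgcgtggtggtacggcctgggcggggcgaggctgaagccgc

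The bases before the starts used in the windows of Mcm7 and Cdc6, and part of those of Cdc45, lie within annotated transcripts and were not printed. The stretch of Mcm5 stops 41 bases short of the RefSeq start, where the annotated gene begins. In Mcm6 the E2F match nearest the start ended 39 bases before it, and in Mcm5 the overlapping pair ended 141 bases before it. In Mcm10 the CCAAT copies ended 93 and 18 bases before the start.

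The libraries held 68516857 to 160426338 counts, and each member had 314 to 88037 counts in every library, so that counting error was small beside the spread between replicate libraries. Levels are given as CPM, counts scaled to library size after TMM normalisation. Adjusted p values are from edgeR's quasi-likelihood test over 17700 genes with Benjamini-Hochberg adjustment, and a gene was called at adjusted p under 0.05. Between the stages all 4 small pre-B gate markers and all 7 B lineage markers rose in both genotypes, and of the 6 large pre-B gate markers all fell in Ctrl and 5 in cKO, where Kit was not called (adjusted p = 0.0536). Igll1, the surrogate light chain gene of the large stage, was 213 to 338 CPM in early LPre-B and 5.76 to 10.2 in sPre-B, and Il2ra, which encodes CD25, was 18.6 to 53.6 and 476 to 532. Upf1 did not check the genotype labels, since its count over the whole gene was 237 and 213 CPM in Ctrl and 244 and 258 in cKO early LPre-B, and 186 and 198 in Ctrl and 282 and 293 in cKO sPre-B, higher in the libraries labelled cKO (in sPre-B Log2FC = 0.59, SE = 0.10, adjusted p = 0.00245). Cd79a, which carries the Cre insertion, ran the way the labels say, at 640.5 and 543 CPM in Ctrl and 188 and 160.0 in cKO early LPre-B and 1478 and 1602 in Ctrl and 405 and 325 in cKO sPre-B (Log2FC = -1.77 and -2.08), without overlap. Replicate 2 of Ctrl, at both stages, was from male mice by its transcripts (Xist counts of 151 and 304, Y-linked counts of 19733 and 28205) and the other 6 libraries were from female mice (Xist counts of 290740 to 513937), so the results of edgeR for the members and the gene lists were also computed without those 2 libraries. Sex was tied to genotype in this way and its part in the results was not tested beyond that. In bulk RNA, fewer cells that express a gene and less RNA per cell cannot be told apart.

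In Ctrl early LPre-B cells the 6 ring genes were the most abundant members, and the loading and activation genes were lower. Per kilobase of exon, Mcm7 was highest at 196 ± 27.2 CPM (SD, n = 2), followed by Mcm3 at 167 ± 20.4, Mcm5 at 163 ± 21.0, Mcm2 at 144 ± 27.4, Mcm6 at 134 ± 16.5 and Mcm4 at 117 ± 14.2. The ranges of neighbours in this order overlapped from Mcm7 down to Mcm4. Below the ring, Cdt1 stood at 60.2 ± 8.89, Cdc45 at 53.2 ± 0.904, Cdc6 at 26.9 ± 2.25 and Mcm10 at 26.2 ± 2.29 CPM per kilobase, and of these only Cdc6 and Mcm10 overlapped. Mcm7 was also first in the other 3 groups, where it did not overlap the next gene, and Cdc6 and Mcm10 held the last 2 places in all 4. With coding length in place of exon length, Mcm7 was likewise first and Cdc6 and Mcm10 last in all 4 groups.

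**Figure D1:**
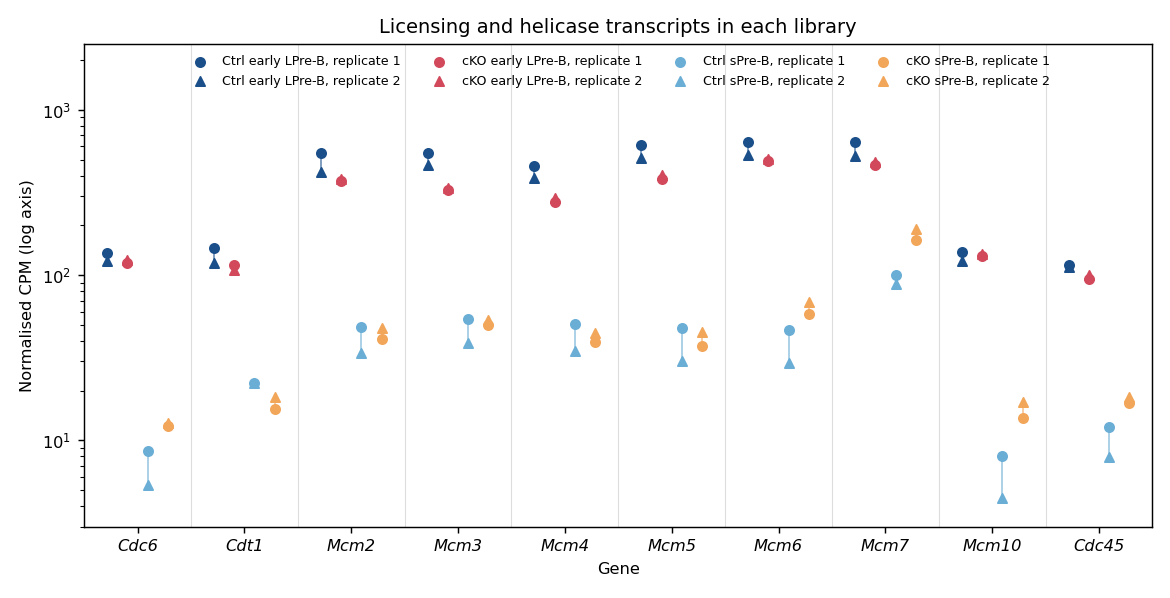
Normalised CPM of the 10 genes (vertical log axis) in each of the 8 libraries, with circles for replicate 1, triangles for replicate 2 and a line joining the 2 replicates of a group. Every gene was lower in all 4 sPre-B libraries than in all 4 early LPre-B libraries, and Ctrl sPre-B replicate 2 was the lowest library for 9 of the 10 genes, all but Cdt1.

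The first question was how these genes changed as large pre-B cells became small pre-B cells in the controls. All 10 fell, by 5.96-fold for Cdt1 to 20.6-fold for Mcm10, and no sPre-B library reached an early LPre-B library. Of all tested genes 31.1% were called lower and 29.1% higher in this comparison, and the median Log2FC was -3.53 for the 10 genes against 0.02 for all genes. Among the loaders, Cdc6, which opens the site for the ring, was 136 and 121 CPM in early LPre-B and 8.57 and 5.40 in sPre-B (Log2FC = -4.20, SE = 0.20, adjusted p = 1.37e-06). Cdt1, which delivers the ring, was 145 and 118 CPM and then 22.1 and 22.1 (Log2FC = -2.58, SE = 0.13, adjusted p = 1.51e-06). The fall of Cdt1 was the smallest of the 10, within its error of that of Mcm7, and its sPre-B libraries were nearly equal.

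The 6 ring genes all fell, and Mcm7 fell least. Mcm2 was 550.3 and 419.6 CPM in early LPre-B and 48.4 and 33.8 in sPre-B (Log2FC = -3.56, SE = 0.21, adjusted p = 2.82e-06). Mcm3 was 549 and 461 and then 54.4 and 39.0 (Log2FC = -3.43, SE = 0.17, adjusted p = 1.58e-06), and Mcm4 was 457 and 385 and then 50.3 and 34.6 (Log2FC = -3.31, SE = 0.19, adjusted p = 2.53e-06). These 3 fell by about the same amount, within their errors. Mcm5 was 615 and 513 and then 48.0 and 30.4 (Log2FC = -3.85, SE = 0.23, adjusted p = 3.00e-06), and Mcm6 was 637 and 535 and then 46.5 and 29.2 (Log2FC = -3.95, SE = 0.23, adjusted p = 2.72e-06). Mcm7 stood apart from the other ring genes, at 636 and 523 and then 101 and 88.0 CPM (Log2FC = -2.62, SE = 0.14, adjusted p = 2.30e-06). Its sPre-B mean was 16.3% of its early LPre-B mean, against 6.46% for Mcm6 to 10.1% for Mcm4 in the rest of the ring.

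Both activation genes fell as well. Mcm10, which binds the assembled helicase at firing, was 138 and 122 CPM in early LPre-B and 8.09 and 4.45 in sPre-B (Log2FC = -4.36, SE = 0.26, adjusted p = 3.06e-06). Cdc45, a subunit of the active helicase, was 115 and 113 and then 12.1 and 7.91 (Log2FC = -3.50, SE = 0.18, adjusted p = 1.78e-06). In sPre-B the replicates differed for these genes, since replicate 1 was above replicate 2 for all 10, in ratio by most for Mcm10 and hardly at all for Cdt1. The proliferation gene Mki67 differed in the same direction, at 717 and 359.6 CPM, and so did Top2a, at 368 and 181. Without the 2 Ctrl libraries of replicate 2 all 10 genes were still called lower, beside 23.4% of all tested genes, with a median Log2FC of -3.35.

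**Figure D2:**
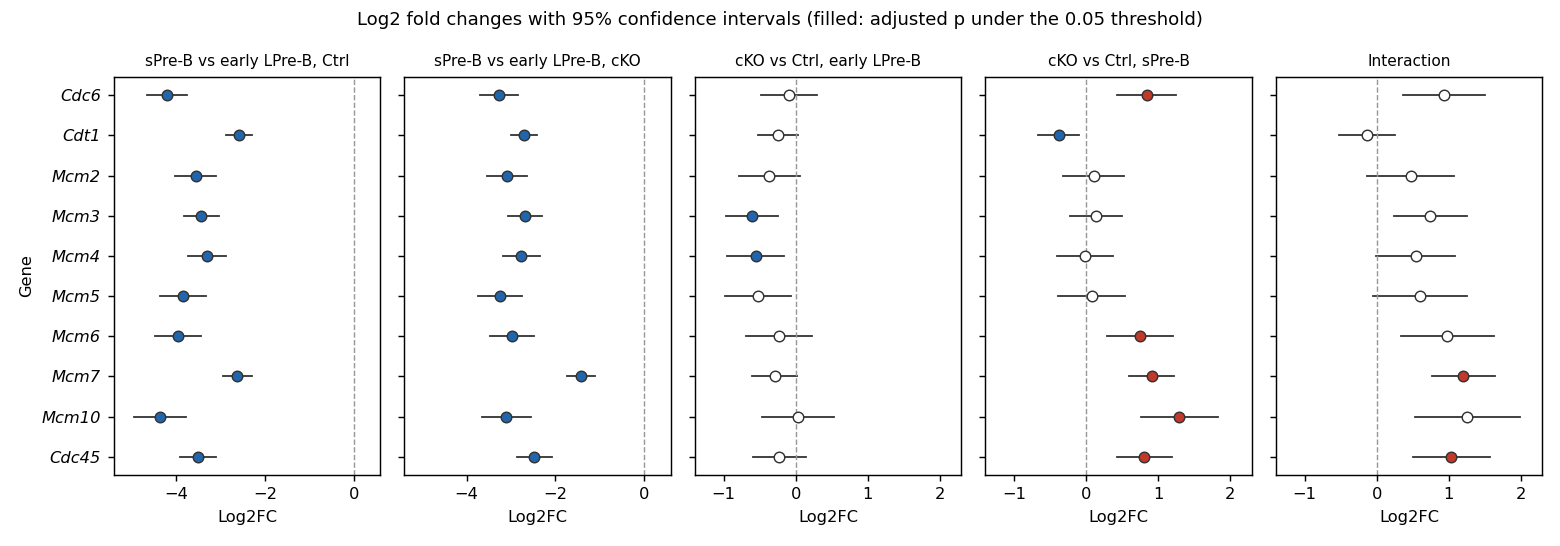
Log2FC (horizontal) of the 10 genes with 95% confidence intervals in the 4 comparisons and for the interaction of stage and genotype, with filled points for genes called at adjusted p under 0.05 (blue lower, red higher). The stage panels hold 10 filled points each, the early LPre-B panel 2, the sPre-B panel 6 and the interaction panel 2.

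In the cells labelled cKO all 10 genes fell between the stages too, by 2.67-fold for Mcm7 to 9.58-fold for Cdc6, with a median Log2FC of -2.87. Of all tested genes 31.1% were called lower and 31.6% higher. Mcm7 fell least of the 10, from 463 and 483 to 164 and 191 CPM (Log2FC = -1.42, SE = 0.14, adjusted p = 3.78e-05), and its sPre-B mean was 37.5% of its early LPre-B mean. Cdc45 followed, from 94.8 and 100.02 to 16.8 and 18.3 CPM (Log2FC = -2.47, SE = 0.17, adjusted p = 6.68e-06), with 18.0% in sPre-B. The other 8 genes had 10.4% for Cdc6 to 15.5% for Mcm3. Cdt1 was the sole gene with a lower percentage in cKO than in Ctrl, 15.2% against 16.8%.

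**Figure D3:**
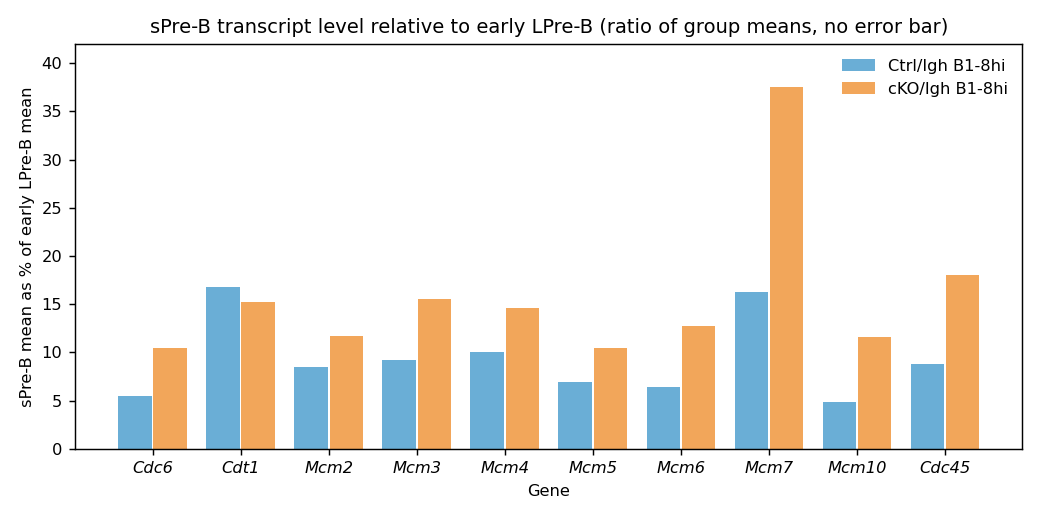
Mean sPre-B level of each gene as a percentage of its mean early LPre-B level (vertical), in Ctrl (blue) and cKO (orange) cells, from 2 libraries a group and without error bars. The cKO bar is the taller for 9 of the 10 genes, with the widest gap for Mcm7 (16.3% and 37.5%), and for Cdt1 it is the shorter (16.8% and 15.2%).

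The next comparison was of genotypes at the early LPre-B stage. Mcm3 and Mcm4 fell in the libraries labelled cKO and the other 8 genes were not called, while 16.9% of all tested genes were called lower and 14.5% higher. Mcm3 was 549 and 461 CPM in Ctrl and 326 and 338 in cKO (Log2FC = -0.60, SE = 0.16, adjusted p = 0.0196). Mcm4 was 457 and 385 against 278 and 294 (Log2FC = -0.56, SE = 0.17, adjusted p = 0.0374). For both genes the groups did not overlap. Mcm5 was 615 and 513 CPM against 383 and 402 (Log2FC = -0.52, 95% confidence interval -0.98 to -0.06, adjusted p = 0.0812), and Mcm2 was 550.3 and 419.6 against 370.2 and 383 (Log2FC = -0.36, 95% confidence interval -0.79 to 0.06, adjusted p = 0.170). Mcm6 was 637 and 535 against 490.5 and 505 CPM (Log2FC = -0.23, 95% confidence interval -0.69 to 0.22, adjusted p = 0.409). Mcm7 was 636 and 523 against 463 and 483 CPM (Log2FC = -0.29, 95% confidence interval -0.60 to 0.01, adjusted p = 0.132).

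Of the loading and activation genes, none was called at this stage. Mcm10 was 138 and 122 CPM in Ctrl and 131 and 134 in cKO (Log2FC = 0.03, 95% confidence interval -0.47 to 0.53, adjusted p = 0.931), and Cdc6 was 136 and 121 against 118 and 123 (Log2FC = -0.10, 95% confidence interval -0.49 to 0.29, adjusted p = 0.702). Cdt1 was 145 and 118 against 115 and 108 (Log2FC = -0.24, 95% confidence interval -0.52 to 0.03, adjusted p = 0.155), and Cdc45 was 115 and 113 against 94.8 and 100.02 (Log2FC = -0.23, 95% confidence interval -0.60 to 0.14, adjusted p = 0.325). The median Log2FC of the 10 genes was -0.27, against -0.06 for all tested genes. Mcm3 and Mcm4 both lost the call when Ctrl early LPre-B replicate 1 or either cKO early LPre-B library was left out. Their Log2FC were then -0.44, -0.58 and -0.63 for Mcm3 and -0.39, -0.51 and -0.60 for Mcm4. Mcm4 also lost the call without Ctrl early LPre-B replicate 2 alone or cKO sPre-B replicate 1 (Log2FC = -0.62 and -0.55). Without the 2 Ctrl libraries of replicate 2, 4 genes were called lower beside 11.6% of all tested genes, Mcm2 (Log2FC = -0.50, adjusted p = 0.0344) and Mcm5 (Log2FC = -0.60, adjusted p = 0.0255) with Mcm3 and Mcm4.

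At the sPre-B stage 6 of the 10 genes were called between the genotypes, with 5 rising and 1 falling in cKO, while 19.8% of all tested genes were called higher and 14.9% lower. Mcm10 differed most, at 8.09 and 4.45 CPM in Ctrl and 13.7 and 17.1 in cKO (Log2FC = 1.29, SE = 0.23, adjusted p = 0.00352, 2.45-fold). Cdc45, the other activation gene, was 12.1 and 7.91 against 16.8 and 18.3 (Log2FC = 0.81, SE = 0.17, adjusted p = 0.00684). Both cKO libraries were above both Ctrl libraries for these genes. Of the loaders, Cdc6 rose, at 8.57 and 5.40 CPM in Ctrl and 12.3 and 12.8 in cKO (Log2FC = 0.84, SE = 0.18, adjusted p = 0.00783). Cdt1 went the other way, at 22.1 and 22.1 against 15.5 and 18.4 (Log2FC = -0.38, SE = 0.12, adjusted p = 0.0395). The groups of Cdt1 did not overlap either, so that the pair of genes that load the ring moved in opposite directions.

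Within the ring only Mcm6 and Mcm7 were called in sPre-B. Mcm7 was 101 and 88.0 CPM in Ctrl and 164 and 191 in cKO (Log2FC = 0.91, SE = 0.14, adjusted p = 0.00137, 1.88-fold). Mcm6 was 46.5 and 29.2 against 58.3 and 68.6 (Log2FC = 0.75, SE = 0.20, adjusted p = 0.0213). The other 4 ring genes had overlapping groups and Log2FC near 0. Mcm2 was 48.4 and 33.8 against 40.8 and 47.7 (Log2FC = 0.11, 95% confidence interval -0.32 to 0.53, adjusted p = 0.703), and Mcm3 was 54.4 and 39.0 against 49.7 and 53.3 (Log2FC = 0.14, 95% confidence interval -0.22 to 0.50, adjusted p = 0.529). Mcm4 was 50.3 and 34.6 against 39.2 and 44.6 (Log2FC = -0.02, 95% confidence interval -0.41 to 0.37, adjusted p = 0.948), and Mcm5 was 48.0 and 30.4 against 37.5 and 45.1 (Log2FC = 0.07, 95% confidence interval -0.39 to 0.54, adjusted p = 0.809). The median Log2FC of the 10 genes was 0.44, against 0.01 for all tested genes.

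Part of the size of these differences rested on Ctrl sPre-B replicate 2, the lowest library for 9 of the 10 genes and a male one. Without the 2 Ctrl libraries of replicate 2, 4 genes were called higher beside 14.1% of all tested genes: Mcm7 (Log2FC = 0.78, adjusted p = 0.0107), Mcm10 (Log2FC = 0.89, adjusted p = 0.0120), Cdc6 (Log2FC = 0.51, adjusted p = 0.0155) and Cdc45 (Log2FC = 0.50, adjusted p = 0.0210). Mcm6 lost the call (Log2FC = 0.41, adjusted p = 0.0648), as did Cdt1, whose Log2FC was little changed (Log2FC = -0.42, adjusted p = 0.0653). The median Log2FC was then 0.15. Without Ctrl sPre-B replicate 1 the median was 0.69, and the same 4 genes and Mcm6 were called higher. Cdt1 lost its call when any of 5 libraries was left out by itself, with adjusted p of 0.0550 to 0.245, and Mcm6 when Ctrl sPre-B replicate 2 (Log2FC = 0.41, adjusted p = 0.0935) or cKO sPre-B replicate 2 was (Log2FC = 0.62, adjusted p = 0.104).

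The interaction compared the fall between the stages in cKO with that in Ctrl. Mcm7 and Cdc45 were called, both with a smaller fall in cKO, while 2.64% of all tested genes were called in this direction and 1.60% in the other. For Mcm7 the interaction was Log2FC = 1.20, 95% confidence interval 0.77 to 1.64, adjusted p = 0.0167, and for Cdc45 Log2FC = 1.03, 95% confidence interval 0.50 to 1.57, adjusted p = 0.0472. Another 7 genes had positive values that did not pass, from 0.47 for Mcm2 to 1.26 for Mcm10 (adjusted p of 0.0649 for Mcm10 to 0.356 for Mcm2). Cdt1 alone was below 0 (Log2FC = -0.14, 95% confidence interval -0.53 to 0.25, adjusted p = 0.709). DESeq2 called 6 genes, with Mcm3, Mcm6, Mcm10 and Cdc6 added to Mcm7 and Cdc45, where it called 6.38% of all genes higher and 4.34% lower. Without the 2 Ctrl libraries of replicate 2, neither call of edgeR held, and the values were Log2FC = 1.16 for Mcm7 and Log2FC = 0.69 for Cdc45. With single libraries left out, Mcm7 lost the call in 3 of 8 cases (without Ctrl sPre-B replicate 2 or either cKO early LPre-B library, Log2FC of 1.03 to 1.23). Cdc45 lost it in 7 of 8, all but Ctrl sPre-B replicate 1 (Log2FC of 0.68 to 1.09).

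Both genes called for the interaction share exonic bases with genes on the opposite strand, and whether the counting used strand is not given in the sources used here. Mcm7 (mm10 chr5:138164583-138172111, minus strand) overlaps Ap4m1 and Cops6 and holds the microRNA genes Mir25, Mir93 and Mir106b within its span, and Cdc45 (chr16:18780447-18811972, minus strand) overlaps Ufd1. Ap4m1, an adaptor protein subunit, was 16.7 and 17.9 CPM in Ctrl and 31.9 and 32.9 in cKO sPre-B (Log2FC = 0.91, SE = 0.10, adjusted p = 3.29e-04), and it rose in early LPre-B as well (Log2FC = 0.77, SE = 0.10, adjusted p = 8.02e-04). Cops6, a COP9 signalosome subunit, was 38.8 and 37.5 against 38.5 and 38.2 (Log2FC = 0.01, SE = 0.10, adjusted p = 0.969). Ufd1, a cofactor of the p97 segregase, was 46.7 and 50.5 against 72.1 and 76.6 in sPre-B (Log2FC = 0.61, SE = 0.09, adjusted p = 0.00113) and rose in early LPre-B too (Log2FC = 0.79, SE = 0.09, adjusted p = 3.88e-04). None of the 3 was called for the interaction (adjusted p of 0.378 to 0.663). How many of the Mcm7 or Cdc45 counts came from the opposite strand was not tested. The other 8 genes share no exonic bases with an annotated neighbour, and they lie at chr6:88883474-88898780 (Mcm2), chr1:20802966-20820312 (Mcm3), chr16:15623897-15637400 (Mcm4), chr8:75109468-75128439 (Mcm5), chr1:128331575-128359705 (Mcm6), chr2:4990724-5012791 (Mcm10), chr11:98907709-98923942 (Cdc6) and chr8:122568015-122573130 (Cdt1).

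The ring holds 1 copy of each subunit, so the proportions of the 6 transcripts were compared per kilobase of exon. In Ctrl early LPre-B they ranged from 12.8% of the sum for Mcm4 to 21.2% for Mcm7, a ratio of highest to lowest of 1.67. In Ctrl sPre-B, Mcm7 made up 32.4% and 38.2% of the sum, and the ratio of highest to lowest was 3.68. In cKO the ratio was 2.002 at early LPre-B and 5.13 at sPre-B, where Mcm7 made up 46.5% and 46.9%. The Mcm7 share was thus higher in every sPre-B library than in every early LPre-B library, and higher in both cKO libraries than in both Ctrl libraries at each stage. Mcm6 made up 14.4 and 14.7% in Ctrl and 16.6 and 16.4% in cKO early LPre-B, and in sPre-B 10.1 and 8.58% in Ctrl and 11.2 and 11.4% in cKO. The shares of Mcm2, Mcm3, Mcm4 and Mcm5 were lower in both cKO than in both Ctrl sPre-B libraries, for Mcm3 13.8 and 12.8% against 17.1 and 16.6%. The shares are parts of 1 sum, so that a higher share of Mcm7 lowers the others, and the level of Mcm3 itself was not called lower. No test was made of these shares.

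**Figure D4:**
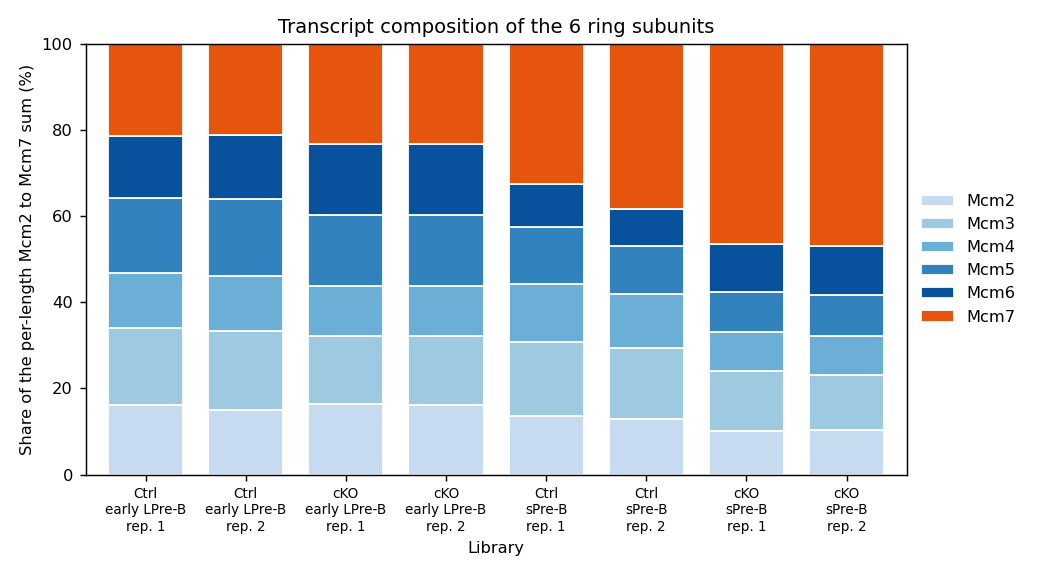
Share of each ring gene in the sum of Mcm2 to Mcm7 counts per kilobase of exon (vertical, %), 1 bar for each of the 8 libraries. The orange Mcm7 segment is 21.2% to 23.2% in the early LPre-B libraries, 32.4% and 38.2% in Ctrl sPre-B and 46.5% and 46.9% in cKO sPre-B.

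Cdt1 and its inhibitor geminin were set side by side as a ratio of CPM, read only between libraries. The ratio of Cdt1 to Gmnn was 2.21 and 1.93 in Ctrl and 2.67 and 2.34 in cKO early LPre-B. In sPre-B it was 2.98 and 4.97 in Ctrl and 2.36 and 2.55 in cKO. The Ctrl sPre-B libraries thus had the highest ratios and did not overlap those of cKO. Gmnn itself was 7.42 and 4.44 CPM in Ctrl and 6.56 and 7.19 in cKO sPre-B, with overlapping groups (Log2FC = 0.21, 95% confidence interval -0.26 to 0.67, adjusted p = 0.465). Between the stages Gmnn fell in Ctrl (Log2FC = -3.42, SE = 0.22, adjusted p = 4.34e-06) and in cKO (Log2FC = -2.69, SE = 0.21, adjusted p = 1.17e-05).

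The genes that act before and after the members were taken from lists chosen by function, also with earlier results of these data known. Between the stages nearly all fell with the members: 7 of 8 genes of licensing inhibition and turnover, all 3 fork protection genes and 23 of 24 polymerase, clamp and ligase genes in both genotypes, and 12 of 12 further helicase activation genes in Ctrl and 11 in cKO. Of all tested genes 31.1% were called lower in each genotype. Of the 6 origin recognition genes, 4 fell and 1 rose between the stages in Ctrl, beside 31.1% and 29.1% of all tested genes. Their median Log2FC was -0.84, a smaller fall than that of the members. In sPre-B, 4 of the 6 rose in cKO, beside 19.8% of all tested genes. These were Orc5 (Log2FC = 0.71, SE = 0.10, adjusted p = 8.68e-04), Orc6 (Log2FC = 0.48, SE = 0.12, adjusted p = 0.0140), Orc2 (Log2FC = 0.42, SE = 0.09, adjusted p = 0.00928) and Orc4 (Log2FC = 0.41, SE = 0.11, adjusted p = 0.0207). Orc2, Orc4 and Orc5 also rose in early LPre-B, by Log2FC of 0.32 to 0.77, beside 14.5% of all tested genes. No member was called higher there. Orc1, the largest subunit, was not called in sPre-B (Log2FC = 0.24, 95% confidence interval -0.05 to 0.54, adjusted p = 0.178).

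Of the 8 genes that inhibit licensing or turn its factors over, 3 rose and 1 fell in cKO sPre-B, beside 19.8% of all tested genes higher and 14.9% lower. Dtl, which targets Cdt1 for destruction in S phase, was 14.4 and 6.84 CPM in Ctrl and 27.3 and 32.4 in cKO (Log2FC = 1.49, SE = 0.28, adjusted p = 0.00413). Fbxo5, an inhibitor of the anaphase-promoting complex, was 26.3 and 14.9 against 40.3 and 50.5 (Log2FC = 1.14, SE = 0.23, adjusted p = 0.00543), and Skp2, another ligase subunit that recognises Cdt1, also rose (Log2FC = 0.71, SE = 0.20, adjusted p = 0.0229). Cul4b, a scaffold of the Dtl ligase, fell in sPre-B (Log2FC = -0.53, SE = 0.09, adjusted p = 0.00250) and in early LPre-B (Log2FC = -0.65, SE = 0.09, adjusted p = 0.00109). The called genes of Cdt1 turnover thus moved in both directions. These ligases act on Cdt1 protein, and a link to the lower Cdt1 RNA in cKO sPre-B was not tested.

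Of 12 further genes of helicase activation, 7 rose in cKO sPre-B, beside 19.8% of all tested genes. The largest values were those of Recql4 (Log2FC = 1.59, SE = 0.11, adjusted p = 4.89e-05), Ticrr (Log2FC = 1.29, SE = 0.23, adjusted p = 0.00319), Wdhd1 (Log2FC = 0.97, SE = 0.13, adjusted p = 9.29e-04) and Cdc7 (Log2FC = 0.75, SE = 0.16, adjusted p = 0.00763), which act in helicase assembly, in recruitment of Cdc45 and GINS, at the fork, and as the kinase of the ring. Dbf4, the partner of Cdc7, was 26.2 and 18.3 CPM in Ctrl and 20.2 and 26.1 in cKO (Log2FC = 0.06, 95% confidence interval -0.34 to 0.46, adjusted p = 0.828). Recql4, Wdhd1 and Cdc7 were also called for the interaction, by Log2FC of 0.87 to 0.99. In early LPre-B, 2 of the 12 rose, beside 14.5% of all tested genes, Recql4 (Log2FC = 0.69, SE = 0.11, adjusted p = 0.00191) and Mtbp (Log2FC = 0.51, SE = 0.11, adjusted p = 0.00851).

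Among the relatives of the ring, Mcm8, which works in recombination repair, was 3.01 and 2.26 CPM in Ctrl and 7.77 and 8.43 in cKO sPre-B (Log2FC = 1.62, SE = 0.16, adjusted p = 1.73e-04) and rose in early LPre-B as well (Log2FC = 0.66, SE = 0.15, adjusted p = 0.00988). Mcmdc2 also rose in sPre-B (Log2FC = 1.53, SE = 0.27, adjusted p = 0.00307). Mcmbp, which binds ring subunits, was not called there (Log2FC = -0.10, 95% confidence interval -0.30 to 0.09, adjusted p = 0.395) and fell slightly in early LPre-B (Log2FC = -0.26, SE = 0.09, adjusted p = 0.0485). All 3 fork protection genes rose in cKO sPre-B, by 0.39 for Tipin to 1.25 for Clspn, beside 19.8% of all tested genes. Of 24 polymerase, clamp and ligase genes, 12 rose and 2 fell there, beside 19.8% and 14.9% of all tested genes. The rises were led by Pole (Log2FC = 1.57, SE = 0.24, adjusted p = 0.00148) and Prim2 (Log2FC = 1.54, SE = 0.11, adjusted p = 4.20e-05). Pole4 (Log2FC = -0.71, SE = 0.12, adjusted p = 0.00305) and Rfc3 (Log2FC = -0.60, SE = 0.13, adjusted p = 0.00826) were lower. Mcm8 (0.95), Prim2 (1.63), Dna2 (0.74) and Rfc4 (0.74) were called for the interaction. In early LPre-B 3 of the 24 rose and 4 fell, beside 14.5% and 16.9% of all tested genes, among them Rpa3 (-0.68), Pole4 (-0.62) and Rfc3 (-0.56) lower, Pold4 (0.49) higher and Pcna, the sliding clamp, lower (Log2FC = -0.48, SE = 0.15, adjusted p = 0.0371).

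**Figure D5:**
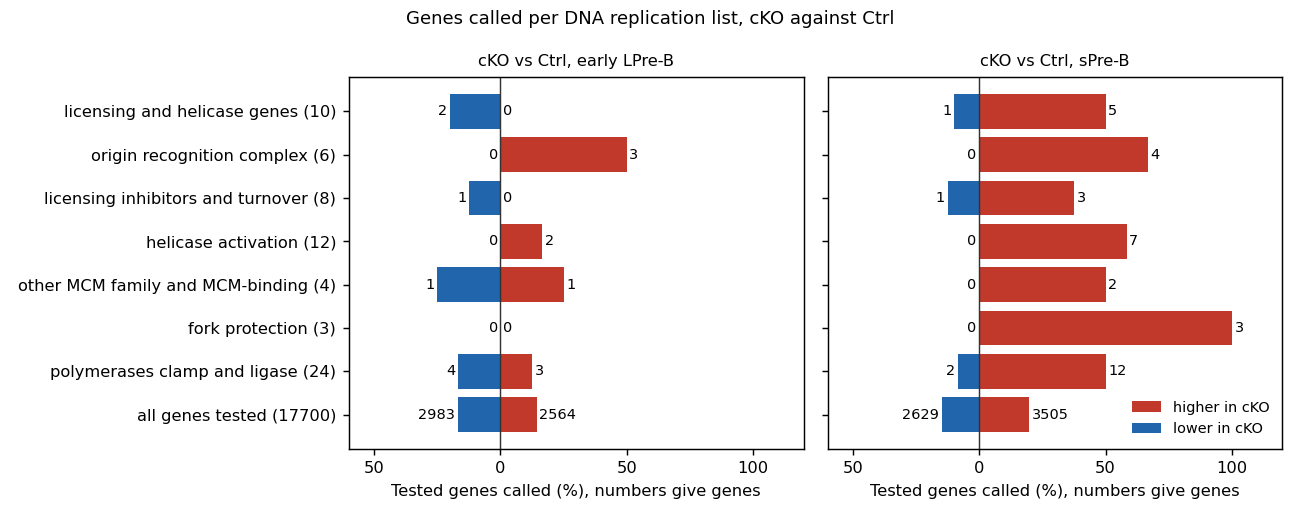
Share of tested genes called lower (blue, to the left) or higher (red, to the right) in cKO against Ctrl, in early LPre-B and sPre-B cells, for the 10 licensing and helicase genes, 6 other replication lists and all tested genes (number tested in brackets, genes called beside each bar). In sPre-B the red bars of the 7 replication lists reach from 3 of 8 to 3 of 3 genes, against 19.8% of all tested genes.

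Proliferation genes moved with the members between the stages. Mki67 was 4460.1 and 4927 CPM in Ctrl early LPre-B, 2906 and 3071 in cKO early LPre-B, 717 and 359.6 in Ctrl sPre-B and 661 and 749 in cKO sPre-B. In sPre-B neither Mki67 (Log2FC = 0.39, 95% confidence interval -0.26 to 1.04, adjusted p = 0.322) nor Top2a (Log2FC = 0.52, 95% confidence interval -0.13 to 1.17, adjusted p = 0.193) was called between genotypes, and Ctrl replicate 1 reached the cKO libraries for both. Of the 5 proliferation markers, Birc5 (Log2FC = 0.72, SE = 0.19, adjusted p = 0.0192) and Aurkb (Log2FC = 0.69, SE = 0.16, adjusted p = 0.0109) rose in cKO sPre-B, beside 19.8% of all tested genes. In early LPre-B none was called by edgeR. There 2 had an unadjusted p under 0.05, as did 7551 of the 17700 tested genes. The sum of Mcm2 to Mcm7 over Mki67, as a ratio of CPM, was 0.486 and 0.709 in Ctrl and 0.588 and 0.601 in cKO sPre-B, with overlapping groups. The groups of the sum over Top2a overlapped as well (0.947 and 1.41 and 1.10 and 1.04). The sum over Pcna was 3.56 and 3.35 in Ctrl and 5.39 and 5.46 in cKO sPre-B, without overlap. The ratio of Mcm10 to that sum was 0.0232 and 0.0175 in Ctrl and 0.0352 and 0.0380 in cKO sPre-B, and in early LPre-B 0.0400 and 0.0429 in Ctrl and 0.0568 and 0.0556 in cKO. It was higher in cKO at both stages and lower in sPre-B than in early LPre-B of the same genotype. The part of cycling cells in the differences of the members was not tested.

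Without the 2 male Ctrl libraries, a choice made for these lists after the data were seen, fewer of the surrounding genes were called in cKO sPre-B, and of all tested genes 14.1% were called higher and 12.4% lower. Of the 24 polymerase, clamp and ligase genes 10 were higher and 2 lower, of the 12 helicase activation genes 6 were higher, and of the 6 origin recognition genes 2, since Orc2 (adjusted p = 0.0609) and Orc6 (adjusted p = 0.0969) lost the call. Of the 8 genes of licensing inhibition and turnover 2 were higher and 1 lower, without Skp2 (Log2FC = 0.37, adjusted p = 0.0955). Tipin was at Log2FC = 0.18 (adjusted p = 0.248), and 1 of the 3 fork protection genes was called. Birc5 and Aurkb were no longer called (adjusted p = 0.0522 and 0.0634). The calls of Recql4, Wdhd1, Cdc7, Mcm8, Dna2 and Rfc4 for the interaction were lost as well, with adjusted p of 0.0788 to 0.166, and Prim2 was still called. In early LPre-B the median Log2FC of the 24 polymerase, clamp and ligase genes was -0.0080, against -0.027 with all libraries. Orc2, Mcmbp and Pold4 lost the call there (Log2FC = 0.31, -0.27 and 0.40). Ccnb1, a proliferation marker not called there with all libraries, was at Log2FC = -0.65.

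Markers of T, NK and erythroid cells were low, and the myeloid sum was lower in cKO than in Ctrl at both stages. The 6 T and NK cell markers summed to 1.21 to 2.60 CPM in all libraries, none of them at 0 in every library. The 7 myeloid markers summed to 304 to 355 CPM in Ctrl and 210.5 to 243 in cKO sPre-B, and 111 to 134 and 50.05 to 55.6 in early LPre-B, most of it Itgam. In Ctrl sPre-B, S100a9 was 28.3 and 33.1 CPM, Lyz2 22.9 and 26.2, S100a8 18.7 and 21.2 and Csf1r 4.37 and 4.23. Elane and Mpo stayed at or below 1.53 and 6.54 CPM in every library. The 7 erythroid and megakaryocyte markers summed to 3.02 to 22.0 CPM and the 5 mature B and plasma cell markers to 53.4 to 145 CPM, with Fcer2a (Log2FC = 3.32, SE = 0.44, adjusted p = 7.35e-04) and Cr2 (Log2FC = 1.21, SE = 0.19, adjusted p = 0.00189) higher in cKO sPre-B and Sdc1, a plasma cell surface proteoglycan, lower there (Log2FC = -0.96, SE = 0.23, adjusted p = 0.0138) and in early LPre-B (Log2FC = -0.88, SE = 0.23, adjusted p = 0.0214). Gate genes differed between the genotypes too. In cKO early LPre-B 3 of the 6 large pre-B gate markers fell, Dntt (Log2FC = -3.31, SE = 0.20, adjusted p = 3.79e-05), Kit (Log2FC = -2.51, SE = 0.45, adjusted p = 0.00387) and Spn (Log2FC = -0.57, SE = 0.14, adjusted p = 0.0172). So did 3 of the 4 small pre-B gate markers, Rag1 (-2.74), Rag2 (-1.04) and Il2ra (-1.02), and 4 of the 7 B lineage markers, beside 16.9% of all tested genes. The median Log2FC of the 6 large pre-B gate markers was -0.55 there, and -0.68 without the 2 male Ctrl libraries. In that fit Igll1 was at -0.57 and Vpreb1 at -0.79. In cKO sPre-B, Igll1 (Log2FC = 0.66, SE = 0.18, adjusted p = 0.0210) and Vpreb1 (Log2FC = 0.88, SE = 0.21, adjusted p = 0.0131) rose, while Dntt (Log2FC = -0.72, SE = 0.21, adjusted p = 0.0253) and Rag1 (Log2FC = -1.06, SE = 0.24, adjusted p = 0.00914) fell. Their part in the differences of the members was not tested.

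The 10 genes followed each other across the libraries. Pearson's r of each member's log2 CPM with the mean of the other 9, over the 8 libraries, was 0.970 for Cdt1 to 0.998 for Mcm6, and the lowest r between any 2 members was 0.915, between Mcm7 and Cdt1. The 5 other genes whose profile was most like the mean of the members were Anp32b (r = 0.9996), Dut (0.9996), Dnmt1 (0.9995), Snrpd1 (0.9994) and Kmt5a (0.9993), over the same 8 libraries. Dut removes dUTP from the nucleotide pool, Dnmt1 maintains DNA methylation behind the fork, and Kmt5a methylates histone H4. Dut was 212 and 178 CPM in Ctrl and 149 and 151 in cKO early LPre-B, and 13.3 and 8.41 against 14.6 and 15.2 in sPre-B. The 8 points share the large difference between stages, and the correlations are given as a description. None of the 5 was called between genotypes at either stage by edgeR, where their Log2FC were -0.38 to -0.12 in early LPre-B and 0.19 to 0.45 in sPre-B.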

How the data were processed

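RNA from sorted mouse pre-B cells was rRNA-depleted, made into directional libraries and sequenced by the authors. Trim Galore was used for trimming, HISAT2 for unstranded alignment (mm10) and featureCounts for assignment to genes, whose strand setting is not given in the sources used here. The deposited values are raw counts per Entrez gene, and 1904 of the gene rows carried no symbol. If strand was not used, reads in the exonic bases that Mcm7 and Cdc45 share with antisense neighbours cannot be assigned to 1 gene. Whole-gene counts do not see an exon deletion. Genes were kept by filterByExpr, normalised by TMM and fitted with edgeR 4.0.16 (quasi-likelihood F test, 1 mean per group over 8 libraries, 4 residual degrees of freedom, Benjamini-Hochberg adjustment, threshold 0.05), after a check on simulated data. The groups were those of the labels. Libraries of a group were independent biological replicates per the study's methods, and no pair was close enough to be 1 library deposited more than once. Log2FC intervals cover 95%. Named genes were the 10 members, up to 4 genes of each list with the largest called changes in a comparison, Gmnn, Orc1, Cdc7, Dbf4, Mcmbp, Mki67, Top2a, Upf1 and Cd79a, and the 5 genes closest to the mean profile of the members. Ap4m1, Cops6 and Ufd1 were named for their position, and Pcna, Sdc1, Ccnb1 and the myeloid markers after their values were seen. The members and lists were chosen with earlier results of these data known. Alternatives were median-ratio size factors, no expression filter, a likelihood-ratio test, DESeq2 1.42.0, blocks by replicate, immunoglobulin genes left out, only the 4 libraries compared, single libraries left out, and both Ctrl libraries of replicate 2 left out, the last run for the lists as a choice made after the data were seen. Sequences and promoter windows are from RefSeq.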

Additional observations from a re-analysis of the deposited data

Results flagged for a closer look

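The difference between the genotypes was itself different at the 2 stages for 2 of the 10 genes, by the interaction term of edgeR's quasi-likelihood test. For Mcm7 the interaction was 1.20 on the log2 scale (adjusted p = 0.0167), from a Log2FC of -0.29 in early LPre-B to 0.91 in sPre-B. For Cdc45 it was 1.03 (adjusted p = 0.0472), from -0.23 to 0.81. For both genes the 2 cKO libraries lay below the 2 Ctrl libraries at early LPre-B and above them at sPre-B. Of all tested genes 2.64% were called higher and 1.60% lower for the interaction. Neither call held without both Ctrl libraries of replicate 2 (adjusted p = 0.0737 for Mcm7 and 0.124 for Cdc45). The call of Cdc45 was lost with median-ratio size factors (adjusted p = 0.0568). It was also lost in 7 of the 8 fits that left out 1 library (Log2FC of 0.68 to 1.09 in those 7). The call of Mcm7 was lost in 3 of the 8 (Log2FC of 1.03 to 1.23 in those 3). Both share exonic bases with a gene on the opposite strand.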

How the results depend on the processing

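The fall of all 10 genes between the stages was called in both genotypes under every alternative run. In the other comparisons the number of genes called for the interaction was 2 as fitted, 1 with median-ratio size factors, 6 without the expression filter, 6 with the likelihood-ratio test, 6 with DESeq2, and 0 to 6 with single libraries left out. In early LPre-B it was 2 as fitted, beside 16.9% of all tested genes called lower. It was 3 with DESeq2, without the expression filter and in the 4 libraries compared, beside 17.8%, 13.3% and 13.6%. With single libraries left out the calls of Mcm3 and Mcm4 did not all hold. The median Log2FC of the 10 genes was then -0.36 to -0.11. In sPre-B the calls of Mcm6 and Cdt1 did not hold in every fit with a single library left out. The median Log2FC of the 10 genes was 0.15 to 0.69 in those fits. Without both Ctrl libraries of replicate 2 the counts were 4 in early LPre-B, 4 in sPre-B and 0 for the interaction. Where a fit leaves 1 library in a group, that library is assumed to vary like the other groups. The cause of these shifts was not tested.

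Values that changed sign belonged to genes that were not called. In early LPre-B, with single libraries or both Ctrl libraries of replicate 2 left out, Cdc6 ranged from -0.13 to 0.026 and Mcm10 from -0.0032 to 0.16 (Log2FC), and the sign of Cdc6 changed without Ctrl replicate 1 and that of Mcm10 without Ctrl replicate 2. In sPre-B the ranges were -0.17 to 0.35 for Mcm2, -0.12 to 0.36 for Mcm3, -0.30 to 0.24 for Mcm4 and -0.25 to 0.41 for Mcm5. Mcm2, Mcm3 and Mcm5 were below 0 without Ctrl replicate 2, Mcm2 (-0.01) and Mcm5 (-0.07) without cKO replicate 2, and Mcm4 was above 0 without Ctrl replicate 1 or cKO replicate 1 (0.07).

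The labels number the replicates alike in each group but do not say that a number marks 1 mouse or day, and pairing was not established. Same-numbered Ctrl libraries shared sex. Deviations from the group means of same-numbered libraries had r of 0.0514 to 0.395, the highest between the stages of Ctrl (0.395) and of cKO (0.254). With a replicate block the interaction called 2 genes and no count moved by over 1.5 times, and with a block for each genotype and replicate it called 9, all higher, where 7.68% of all tested genes were called higher. The shares of all tested genes called higher for the interaction were 2.64% as fitted, 2.31% with median-ratio size factors, 4.71% without the expression filter, 5.67% with the likelihood-ratio test, 6.38% with DESeq2, 0.466% to 3.09% with single libraries left out and 0.321% without both Ctrl libraries of replicate 2.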
